A study of Homo sapiens with 6 samples.

Results

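MST elements are long terminal repeat (LTR) retrotransposons of the primate genome, and their RNA was followed here across 4 cell lines of atypical teratoid rhabdoid tumor (AT/RT). Members were all LTR annotations in the deposited files whose repeat name starts with MST, from MSTA to MSTD, both the LTRs and the internal sequences (names ending in -int). They numbered 50699 of 720177 LTR elements, with 15 subfamily names, 45288 of them LTRs and 5411 internal sequences. The rule itself uses no measured value.

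The MST group belongs to the mammalian apparent LTR retrotransposons (MaLR), a nonautonomous branch of the endogenous retrovirus L class that has no envelope gene. Its members lie between the older MLT1 and the younger THE1 group, and MSTA is the youngest MST subfamily. An LTR carries the promoter and the polyadenylation signal of its element, so a solitary LTR inside or beside a gene can be read through from that gene, can start a transcript or can end one.

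AT/RT is a brain tumor of young children in which SMARCB1, a core subunit of the SWI/SNF chromatin remodelling complex, is lost, and the study asked what part SMARCB1 has in the control of endogenous retroviruses, above all HERV-K (HML-2). Total RNA of 4 lines was sequenced as stranded 125 bp paired-end libraries. CHLA 04 and CHLA 06 each had 2 technical replicates, whereas CHLA 02 and CHLA 05 had 1 library each. All cells shared a DMEM:F12 medium with EGF, basic FGF and B-27, the labels give no treatment, and no control tissue was analysed here. Each line is 1 biological sample, so differences between lines have no test, and errors below are the SD of technical replicates (n = 2).

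The sequence below, read from GRCh38 on the strand of its element, is the last 300 bases of an MSTB1 LTR in an exon of the noncoding gene GABPB1-AS1. It is shown as the example of an element with many reads in every library.
MSTB1 of GABPB1-AS1, chr15:50361725-50362024 (+): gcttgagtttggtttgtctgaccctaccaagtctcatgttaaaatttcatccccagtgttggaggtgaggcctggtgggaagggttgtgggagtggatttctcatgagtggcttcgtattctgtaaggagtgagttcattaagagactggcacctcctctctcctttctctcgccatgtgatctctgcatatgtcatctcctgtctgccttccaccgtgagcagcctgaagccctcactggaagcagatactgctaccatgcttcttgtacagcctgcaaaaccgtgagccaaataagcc
It held neither AATAAA, the canonical polyadenylation signal, nor ATTAAA, its commonest variant. Elements outside arrays and transcript ends were added to the named elements after their values were seen.

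Depth set what could be seen. The libraries held 355302 to 511408 reads on LTR elements, and an element of 400 bp without a read could still have up to 3 reads, which is 6.74 TPM in the deepest and 10 TPM in the shallowest library. Vimentin (VIM) was at 4629 TPM or more in every library and the neuronal tubulin gene TUBB3_1 at 205 TPM or more, whereas the stem cell factor SOX2 did not exceed 4.03 TPM. NES, the neural stem cell marker of the paper, was at 5.21 to 27.6 TPM. PAX6, a neural progenitor factor, was below 1 TPM in both CHLA 06 libraries and at 15.8 to 36.9 TPM in the others. SMARCB1 RNA was listed at 13.5 to 26.2 TPM, although the paper describes its lines as without SMARCB1 expression. Protein is not part of these data.

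Most MST elements were silent at this depth. No read fell in 41286 of them (81.4%), and 3257 (6.42%) reached 10 reads over the 6 libraries, the limit used for "with reads" throughout. The same limit was passed by 4.99% of all LTR elements, by 6.61% of THE1 and by 4.49% of MLT1 elements. Every library gave at least 5 reads to 527 MST elements (1.04%, against 0.831% of all LTR elements). Of these, 425 lay inside a gene (80.6%, against 83.0%), 58 touched an exon (11.01%, against 15.5%) and 67 lay in tandem arrays.

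CHLA 02 gave 9.86% of its LTR reads to MST elements (95% Wilson interval 9.78 to 9.95). CHLA 04 gave 12.6% and 10.5% in its technical replicates (11.5% ± 1.48), CHLA 05 gave 11.5%, and CHLA 06 gave 7.44% and 7.32% (7.38% ± 0.0850). Both CHLA 06 libraries lay below every other library, by more than the replicates of either line differed. CHLA 04 and CHLA 05 could not be ordered, since the replicates of CHLA 04 spanned CHLA 05. The single CHLA 02 library lay below both lines. It was under CHLA 05 and the lower CHLA 04 replicate by less than the CHLA 04 replicates differed, so its place is not settled. In bulk RNA, fewer cells that transcribe an element and less RNA per cell cannot be told apart.

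Tandem arrays carried this difference. An array was set as at least 20 MST elements with gaps of at most 5 kb, a definition by position alone that was chosen after the data were seen. There were 20 such arrays with 1188 elements, which made up 1.79% of MST sequence and 30.0% of MST reads. Of the LTR reads, CHLA 02 had 3.17% in arrays, CHLA 04 had 5.36% and 3.91%, CHLA 05 had 4.46%, and CHLA 06 had 0.666% and 0.625%. The dispersed elements, by contrast, took between 6.59% and 7.23% in all 6 libraries, and the CHLA 06 values of 6.77% and 6.69% lay within that range.

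**Figure D1:**
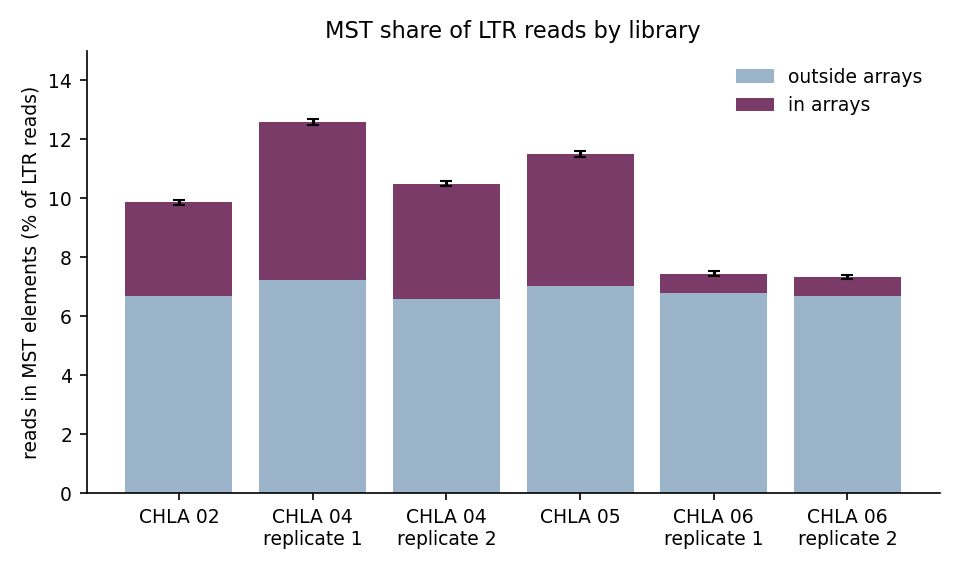
Reads in MST elements as a percentage of all LTR reads in each library, stacked as elements in and outside tandem arrays, with 95% Wilson intervals of the total (counting error only). The part outside arrays stayed between 6.59% and 7.23%, and the part in arrays fell to 0.666% and 0.625% in CHLA 06.

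The 3 arrays with the most reads all lie on chromosome 9 and held 82.7% of the array reads. Array 1, chr9:40294320-40321553, had 60 elements and lies within RP11-146D12.2 (ENSG00000240240), a gene on its strand. Array 2, chr9:66054779-66081986, had 67 elements, and array 3, chr9:64440545-64461581, had 47. Together CHLA 02 had 13456 reads there, CHLA 04 had 18011 and 18922, CHLA 05 had 11696, and CHLA 06 had 1423 and 1170. They alone made up 40.3% and 35.2% of MST reads in CHLA 04 and 4.26% and 3.32% in CHLA 06.

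Their build was shared. Distances were measured from the 5′ end on the strand of the elements. An element of the same name and similar length lay within 100 bp of the same distance in array 1 for 34 of the 47 elements of array 3. In array 2, 36 had one. Among those of at least 100 bp, 23 in each case, the median identity was 99.2% and 99.3%, with the lowest pair at 70.0%. Array 3 spans 21.0 kb, however, and arrays 1 and 2 span 27.2 kb each. An MSTA-int of 1.318 kb lies at 12.205 kb in array 3 but at 18.4 kb in arrays 1 and 2. Pairs set by distance may thus join different repeat units beyond that point, which limits both the counts and the lowest identity. Full LTRs of at least 250 bp followed each other at a median of 2945 bp, with 15 MSTA-int sequences of at least 1300 bp between them. Array 1 also held an MST-int of 1576 bp.

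**Figure D2:**
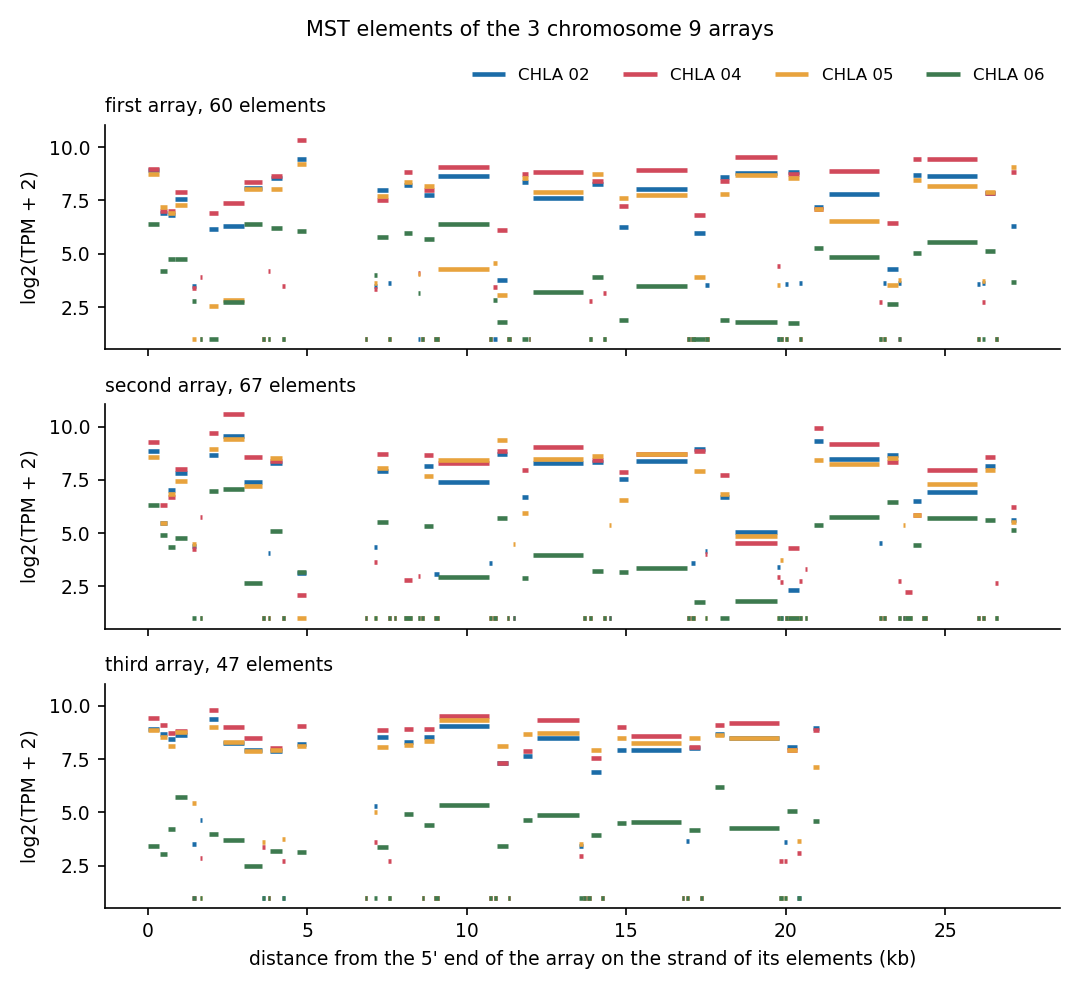
TPM of every MST element in the 3 chromosome 9 arrays with the most reads, as log2(TPM + 2) averaged over technical replicates, against the distance from the 5′ end of the array. Each bar spans 1 element, colors give the cell line, and CHLA 06 lies below the other lines at 77 of the 82 elements with reads.

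Of the 174 elements in these arrays, 82 had reads. CHLA 06 was below every other library in 77 of them, and the lowest of the other lines was at least 2 above CHLA 06 on the log2(TPM + 2) scale in 65, with a median difference of 2.98. For an MSTA LTR of array 1, chr9:40298992-40299281, CHLA 02 had 685 TPM, CHLA 04 had 1533 and 1011, CHLA 05 had 584, and CHLA 06 had 63.6 and 66.1. An MSTA-int at chr9:64449663-64451241 had 521, 852, 618 and 642 TPM in the same order and 48.0 and 28.5 in CHLA 06. Neither element had overlapping values between CHLA 06 and the rest.

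How reads were divided among these copies is uncertain. In the median element of the 82, 14.2% of its 125-base windows occurred once in GRCh38, and 65 of the 82 had under 50%. The share was 0% in the MSTA at chr9:40298992-40299281 and 38.1% in the MSTA-int at chr9:64449663-64451241, so their TPM cannot be placed with certainty. The host gene moved with the arrays: for RP11-146D12.2, CHLA 02 had 200.4 TPM, CHLA 04 had 323 and 223, CHLA 05 had 168, and CHLA 06 had 24.1 and 14.97. An ankyrin repeat gene of the ANKRD20A family lies near each array. ANKRD20A2, near array 1, had 15.5 to 68.0 TPM outside CHLA 06 and 3.41 and 3.15 in CHLA 06. ANKRD20A3, near array 2, had 29.5 to 50.9 TPM outside CHLA 06 and 16.2 and 11.6 in CHLA 06. ANKRD20A4, near array 3, had 41.5 to 69.5 TPM outside CHLA 06 and 0.998 and 1.04 in CHLA 06, so all 3 genes were lowest there, to different degrees. Uniqueness was measured for MST elements only, and how reads were divided among these genes was not tested.

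Other arrays followed other lines. The chr22:11915408-11923238 array had 1215 reads in CHLA 05 and 10 to 32 in the other libraries, and its windows occurred once throughout. At chr4:49562525-49577352 CHLA 05 had 738 reads against 7 to 28, and at chr21:13851551-13905362 it had 369 against 1 to 3. An array at chr2:94764333-94786072 had 227 to 395 reads in CHLA 02, CHLA 04 and CHLA 05 and 2 in each CHLA 06 library. The opposite order held at chr9:33577379-33597720, where CHLA 06 had 289 and 475 reads, CHLA 02 had 222, CHLA 05 had 119, and CHLA 04 had 9 and 6.

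Outside arrays, the larger LTR subfamilies lay within 9.54 to 12.2 reads per kb, and smaller ones spread more widely. All MST elements there had 9.82 reads per kb over the 6 libraries, against 9.73 for LTR elements without the arrays. MSTA stood at 9.54, MSTB at 11.1, MSTB1 at 10.6, MSTB2 at 11.02, MSTC at 12.2 and MSTD at 11.1 reads per kb. LTRs as a class had 10.5 and internal sequences 7.58 reads per kb. MSTA1 was at 18.5 reads per kb, with 719 of its 2928 reads from 1 element in an exon of CYTH2, a guanine nucleotide exchange factor. MST-int was at 18.4 reads per kb, with 930 reads from 1 element in an exon of HLA-E, the nonclassical class I gene. The lowest rate was that of MSTA1-int, with 3.28 reads per kb over 22 elements.

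Genes held most of the MST elements that were read. Inside a gene span lay 40.1% of all MST elements and 2230 of the 3257 with reads (68.5%), and among all LTR elements the shares were 40.5% and 69.9%. Exons were touched by 162 with reads (4.97%, against 7.53% for all LTR elements), and 2068 lay in introns only. Orientation differed more. Where the host genes had 1 strand, 38.6% of all MST elements and 26.2% of those without a read were on that strand, whereas 1890 of the 2037 with reads were (92.8%). All LTR elements showed 36.3% and 89.3%, so MST elements were near the background here too. Orientation is that of the annotated element. The libraries were stranded, and the part that counting by strand may have in these shares was not tested.

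Of the 415 elements with reads that were outside genes but within 10 kb of one, 212 were downstream on the strand of the gene, or 51.1%, against 25.8% of all 6129 MST elements so placed. The shares over all LTR elements were 49.1% with reads and 23.9% in all, near those of MST. A further 612 with reads (18.8%) were 10 kb or more from any gene, against 16.1% of all LTR elements with reads.

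Host genes were split by whether MST elements on their strand had reads. Since reads in exon elements are also reads of the gene, a higher gene TPM with reads is no independent result. The same split was not made for all LTR elements. The median of the highest TPM over the lines was 32.01 for 1294 genes with an element with reads on their strand, and 0.0970 for 2177 genes whose MST elements on that strand had none. Between lines, an element was counted as variable where its highest and lowest line differed by at least 2 on the log2(TPM + 2) scale, a 4-fold ratio at high values and a larger one at low values. That held for 1734 of the 3257 MST elements (53.2%), against 49.3% of all LTR elements with reads. Arrays had 237 of 268, and dispersed elements 1497 of 2989 (50.1%). Technical replicates differed by that much in 7.31% of the elements in CHLA 04 and in 4.85% in CHLA 06. These are not a like measure, because a replicate share takes a single pair of libraries. The variable rule takes the widest difference over all lines, which noise alone passes more often.

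Of the variable elements, 1019 had a host gene on their strand. Between the same pair of lines the host gene differed in the same direction in 955 of them (93.7%), against 91.0% of all variable LTR elements with such a host. It differed by at least 2 in 508 (49.9%, background 47.5%), so both shares were near those of LTR elements in general. With exon elements left out the last share was 50.8% of 970. The host differed by 1 or more in the opposite direction in 5 of the 1019, against 79 of 10488 variable LTR elements with such a host. The 5 included an MSTD in SOX2-OT (host difference -5.15), an MSTA in RABGAP1L (-3.39) and an MSTD in LIPA (-3.25).

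**Figure D3:**
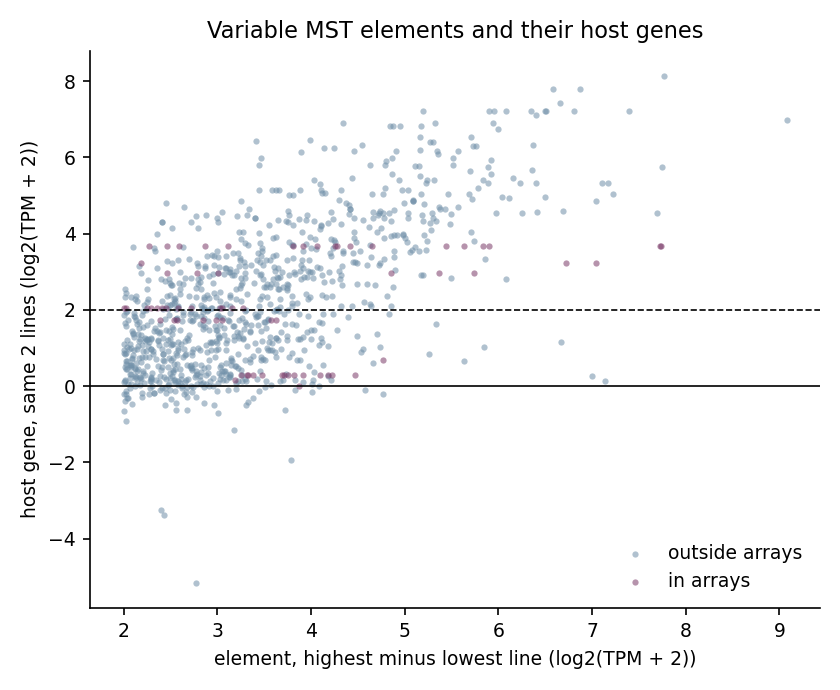
Each point is 1 variable MST element with a host gene on its strand (1019 elements), with the difference between its highest and lowest cell line and the difference of the host gene between the same lines, both on the log2(TPM + 2) scale. In 955 the host lies above 0 and in 508 it lies at or above the dashed line at 2.

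Several host genes carried many such elements. NRG1, which encodes the ErbB ligand neuregulin 1, had 7 variable intronic elements, for which CHLA 02 had 265 reads, CHLA 04 had 434 and 540, CHLA 05 had 67, and CHLA 06 had 0 and 1. Its gene TPM had the same order, at 143, 384 and 325, 52.4, and 0.468 and 0.305. SPOCK1, a secreted proteoglycan gene, had all 9 of its MST elements on its strand counted as variable, with 111 and 109 reads in CHLA 06 and at most 7 in any other library, and its TPM was 129 and 88.7 in CHLA 06 and at most 11.7 elsewhere. In KCNMB2, which encodes a potassium channel subunit, 7 elements had 339 and 374 reads in CHLA 06, 120 in CHLA 02 and at most 1 in CHLA 04 and CHLA 05. The latter lines had 0 TPM of KCNMB2 itself. PSD3 had 5 elements for which CHLA 05 had 175 reads, CHLA 04 had 29 and 30, CHLA 02 had 4 and CHLA 06 had 0, and the gene had 555 TPM in CHLA 05.

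Among other host genes with at least 5 variable elements, the leading line also varied. RAD51B, a homologous recombination gene, had 9 variable elements of 10 on its strand, with 314 and 303 reads in CHLA 06 against 15 to 118 elsewhere, and its TPM was 43.2 and 39.4 in CHLA 06 and 9.63 to 30.7 in the other libraries. DDAH1, which encodes an enzyme that degrades methylarginines, had all 6 of its elements counted, with 239 and 294 reads in CHLA 04 and 36 and 33 in CHLA 06, and its TPM was 346 and 540 against 18.7 and 21.9. CDK14, a cyclin-dependent kinase gene, had 83 reads in 5 elements in CHLA 05 and 0 to 38 elsewhere, and its TPM was 106 in CHLA 05 and at most 50.6 elsewhere. TBC1D8 had 127 reads in 6 elements in CHLA 02 and 91 and 128 in CHLA 06, against 5 to 30 in the remaining libraries. For RAD51B, DDAH1 and CDK14, the line with most element reads also had the highest gene TPM. TBC1D8 RNA peaked in CHLA 02 (121 TPM), followed by CHLA 06 (72.7 and 92.5), although a CHLA 06 library had most element reads. The match did not hold in every such gene. ZNF704 had most element reads in CHLA 05 (61, at 27.5 TPM), but CHLA 04 replicate 1 reached 29.0 TPM with 44 reads. FBXL7 had most in CHLA 06 replicate 2 (85, at 13.3 TPM), whereas CHLA 04 replicate 1 reached 18.3 TPM with 41.

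The element with the largest difference was an MSTD in an exon of LINC01314 (ENSG00000259417), a long noncoding RNA. CHLA 02 had 468 TPM, CHLA 04 had 857 and 1300, CHLA 05 had 765 and neither CHLA 06 library had a read, a difference of 9.08 on the log2(TPM + 2) scale. LINC01314 itself had 94.6, 259, 277 and 182 TPM in those libraries and 0.150 and 0.0849 in CHLA 06. The transcript ends at base 310 of the 352 bases of the element, 17 bases after an AATAAA.

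Introns gave long stretches of MST RNA in some lines. At chr4:76457138-76464969 in SHROOM3, an actin-binding protein gene, CHLA 02 had 544 reads in 6 MST elements, CHLA 04 had 549 and 646, CHLA 05 had 330 and CHLA 06 had none. An MSTA-int there had 229, 309, 239.8 and 138.5 TPM in the libraries with reads. In an MSTA-int of ADGRV1, a very large adhesion receptor gene, CHLA 02 had 120.4 TPM, CHLA 04 had 224 and 104, CHLA 05 had 189.9 and CHLA 06 had no read. CHLA 06 had 2.15 and 2.91 TPM of SHROOM3 and 0.664 and 0.327 of ADGRV1, and the other libraries had at least 83.2 and 315.

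Some elements far from genes were read in CHLA 02 and CHLA 04 but hardly in CHLA 05 and CHLA 06. An MSTD-int at chr6:122871564-122872693, lies 61.8 kb from SMPDL3A, and CHLA 02 had 144 TPM of it, CHLA 04 had 273 and 116, CHLA 05 had 1.95 and CHLA 06 had 0. On chromosome 11, an MSTA at chr11:110076257-110076657 lies 16.7 kb from ZC3H12C, and CHLA 02 had 396 TPM of it, CHLA 04 had 753 and 271, and the other lines had 0. An MSTB at chr11:110013797-110014209 had 430, 479 and 181 TPM in the same 3 libraries and at most 2.66 in the rest. Their nearest genes did not share this split. ZC3H12C had 54.3 TPM in CHLA 02, 75.4 and 100.1 in CHLA 04 and still 45.3 in CHLA 05, and SMPDL3A had 24.195 TPM in CHLA 02 and 29.6 in CHLA 05. CHLA 06 was lowest for both genes, at 22.97 and 18.1 TPM of ZC3H12C and 13.8 and 9.42 of SMPDL3A.

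CHLA 02 and CHLA 06 shared another set. The MSTA at chr4:174082402-174082784 had 124 TPM in CHLA 02, 468 and 498 in CHLA 06 and 0 in CHLA 04 and CHLA 05, and an MSTB-int at chr4:174060041-174061656 had 29.5, 155 and 155 TPM in the same libraries. Their nearest gene, RP11-148L24.1, had 68.5 TPM in CHLA 02, 100 and 91.6 in CHLA 06 and at most 0.115 in the others. An MSTC at chr18:69098960-69099331, 43.8 kb from CCDC102B, had 275 TPM in CHLA 02, 248 and 348 in CHLA 06, and 5.91 to 9.67 in CHLA 04 and CHLA 05. CCDC102B followed with 311 to 364 TPM in the first set and 7.77 to 11.03 in the second.

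**Figure D4:**
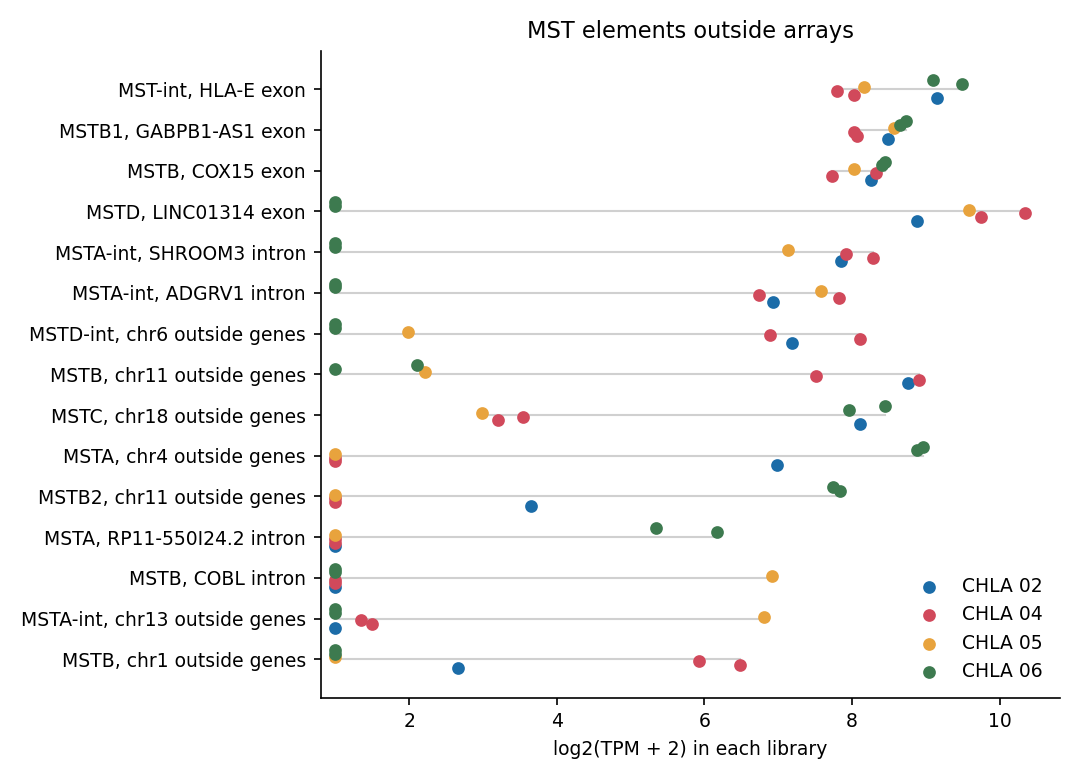
Values of 15 MST elements outside arrays in each library as log2(TPM + 2), with 1 point per library colored by cell line and set slightly apart in height. The upper 3 elements were above 200 TPM in every library, the next 3 separate CHLA 06 from the rest, the next 4 split the lines in pairs, and the lowest 5 were highest in 1 line.

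A stricter rule asked for elements higher in 1 line alone, by at least 2 on the log2(TPM + 2) scale above the highest other line with no overlap of libraries. CHLA 05 had 155 MST elements (4.76%), against 3.33% of all LTR elements, and 51 of the 155 were in arrays. Outside arrays its share was 3.48%, near the background. CHLA 06 had 62 (1.90%, background 1.85%), CHLA 04 had 21 (0.645%, background 0.662%) and CHLA 02 had 1 (0.0307%, background 0.125%).

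In CHLA 05, an MSTA of the chromosome 22 array, chr22:11915408-11915741, had 839 TPM, against at most 13.5 in CHLA 02 and CHLA 04 and 0 in CHLA 06. The MSTA at chr13:109227893-109228279 had 128 TPM from 45 reads and no read elsewhere. An MSTA-int beside it, chr13:109228280-109229908, had 163 reads in CHLA 05 and 2 in all other libraries. These lie on the minus strand 19.9 kb or more past the end of MYO16, a myosin gene on the plus strand with 2.31 TPM in CHLA 05 and at most 0.940 elsewhere. An MSTB in an intron of COBL, an actin nucleator gene, had 119 TPM from 45 reads in CHLA 05 alone, where COBL had 141 TPM against at most 1.68 in the other libraries. The MSTA in RNF212, a meiotic gene, had 87.8 TPM in CHLA 05 alone, and the gene had 48.5 TPM against at most 0.641. A group of 7 elements at chr5:34293058-34317516 outside genes had 706 reads in CHLA 05, 39 to 69 in CHLA 02 and CHLA 04 and 0 in CHLA 06.

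In CHLA 06, an MSTB2 at chr11:110407380-110407660 had 226 and 212 TPM, with 10.6 in CHLA 02 and 0 in CHLA 04 and CHLA 05. An MSTA at chr3:157227378-157227801 had 70.1 and 38.4 TPM and an MSTB1 at chr5:65008947-65009392 had 50.5 and 49.4, with no read in any other line. Both lie in introns opposite to the gene, and CWC27, the host of the second, had 35.1 to 65.7 TPM over all libraries. In CHLA 04, MSTB elements at chr1:147791189-147791389 and chr1:147791682-147791911 had 53.1 and 62.6 TPM, and 87.1 and 58.6 TPM, with at most 4.32 elsewhere. They lie 2.24 and 2.73 kb past the end of RP11-433J22.3, on the strand of that gene. RP11-433J22.3 had 3.45 and 3.02 TPM in CHLA 04, 1.87 in CHLA 02 and 0 in CHLA 05 and CHLA 06. An MSTB1 in DAB1, a reelin pathway adaptor gene, had 19.3 and 30.3 TPM in CHLA 04 alone. CHLA 02 had 1 element, an MSTB at chr4:112092956-112093372 with 9 reads in CHLA 02 and 1 in each CHLA 04 library.

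At the other end, some MST elements differed little between lines. For the MSTB1 in an exon of GABPB1-AS1, CHLA 02 had 356 TPM, CHLA 04 had 265 and 258, CHLA 05 had 376, and CHLA 06 had 400.4 and 422, a difference of 0.65 on the log2(TPM + 2) scale. An MSTB that overlaps the last exon of COX15, a heme synthesis gene, had 210 to 347 TPM over the 6 libraries. The MST-int in HLA-E had a high level in every library but differed more, by 1.39 on the same scale, and CHLA 02 had 566 TPM, CHLA 04 had 258 and 220.5, CHLA 05 had 285, and CHLA 06 had 715 and 546. HLA-E itself had 82.1, 50.9 and 33.6, 43.5, and 97.9 and 78.9 TPM. Both measures were highest in CHLA 06 and CHLA 02. Reads of an element inside an exon are also reads of the gene, since LTR elements and transcripts were mapped separately.

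MST elements also held annotated transcript ends and, less often, starts. On the strand of the element, 128 MST elements held the end of an Ensembl transcript (0.252%, against 0.339% of all LTR elements). Of these, 47 had reads (1.44% of those with reads, against 2.08% of all LTR elements with reads). Starts lay in 101 (0.199%, against 0.246%), 16 of them with reads (0.491%, against 0.873%). All 4 shares were below those of LTR elements in general. In the MSTA of SLC15A2, a peptide transporter gene, a transcript start lies at base 407 of 421, and CHLA 02 had 99.1 TPM of the element, CHLA 04 had 159 and 57.7, CHLA 05 had 10.4, and CHLA 06 had 4.87 and 2.28. SLC15A2 had 19.1, 29.5 and 13.1, 3.70, and 0.569 and 1.22 TPM, so the line means had the same order for element and gene.

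The polyadenylation hexamers were common in MST LTRs. AATAAA and ATTAAA were searched on the strand of the element in LTRs of 300 to 450 bp. ATTAAA was in 65.7% of 13737 MSTA LTRs and AATAAA in 7.97%, whereas AATAAA was in 57.3% of MSTA1, 38.2% of MSTB, 62.4% of MSTB1, 61.4% of MSTB2, 57.7% of MSTC and 56.9% of MSTD LTRs. MSTB was mixed, with ATTAAA in 33.4%. On the opposite strand AATAAA was in 11.5% and ATTAAA in 11.1% of MST LTRs. Over all LTR elements of that length, the shares on their own strand were 32.7% and 29.3%. In MSTA a median of 68 bases followed the last ATTAAA, and in MSTD a median of 66 bases followed the last AATAAA. MST LTRs with reads had AATAAA in 33.6% and ATTAAA in 35.4%, near the 31.8% and 39.8% of all MST LTRs.

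**Figure D5:**
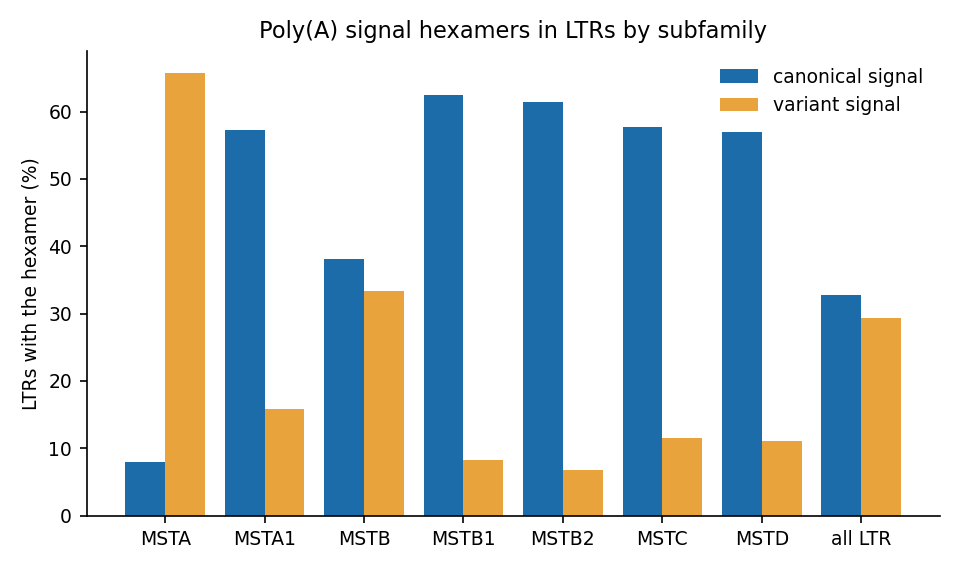
Share of LTRs of 300 to 450 bp that hold the canonical polyadenylation hexamer or its commonest variant on their own strand, by MST subfamily and over all LTR elements. MSTA held mainly the variant (65.7%), MSTB held both, and the other subfamilies held mainly the canonical form (56.9% to 62.4%).

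In the 50 bases before a transcript end, AATAAA or ATTAAA stood at 105 of 148 ends that lie in MST elements (70.9%), at 52.6% of ends in any LTR element and at 29.7% of all 155081 annotated ends. Of 53 ends in MSTA, 38 had ATTAAA and 2 had AATAAA, and of 91 ends in the other MST LTRs, 63 had AATAAA and 3 had ATTAAA. In the named elements, the end of COX15 lay 19 bases after AATAAA in an MSTB, that of JRK 17 or 20 bases after it in an MSTB1, and that of LSG1 20 bases after ATTAAA in an MSTA. LSG1, a ribosome biogenesis gene, had 38.4 to 75.3 TPM, and its MSTA had 177 to 263 TPM over the 6 libraries. A hexamer match is a description of the letters, and use of these ends was not measured.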

How the data were processed

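RNA of 4 AT/RT cell lines was sequenced in 6 libraries. Per the labels and the study's methods, the authors trimmed reads with Trimmomatic and mapped them to GRCh38 with the CLCbio RNA-Seq tool, separately against Ensembl transcripts and RepeatMasker LTR features. The deposited values are TPM per transcript and, scaled over LTR elements alone, TPM per LTR element. Whether counting used strand is not given in the sources used here.

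TPM multiplied by length was a whole multiple of 1 step for 100% of LTR values in each library (tolerance 0.1 step plus rounding), and a step was taken as 1 read. Recovery and call rule were tested on simulated data. Gene TPM is the sum over transcripts. Technical replicates were averaged as TPM, and fold rules used log2(TPM + 2), which understates changes of low elements. Intervals are 95% Wilson intervals and cover counting error only. Gene spans and exons came from the transcript files (36532 genes), and a host was any gene overlapping an element by 1 bp or more. Uniqueness counted 125-base windows on chromosomes 1 to 22, X and Y of GRCh38. Python 3.11.15, pandas 2.3.3, scipy 1.17.1 and pyranges 0.1.4 were used.

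The members, lists and rules were chosen with earlier results of these data known. Named elements were the 10 highest in mean TPM with at least 20 reads, the 3 with the largest difference among those higher in each line, the 3 highest at least 10 kb from genes, the one with most reads per subfamily, the 3 internal sequences and the neighbouring pair with most reads, and their host or nearest genes. Since arrays filled several of these places, the same rules outside arrays, the elements with transcript starts or ends, host genes with at least 5 variable elements and multi-element loci were added after values were seen. Alternatives covered read limits, pseudocounts, quantile normalization, gene span rules, leaving out each technical replicate and leaving out the arrays. Sequences of most named elements are not reported here.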

Additional observations from a re-analysis of the deposited data

How the results depend on the processing

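No paired analysis was possible because each cell line is 1 biological sample and replicate numbers mark technical replicates of CHLA 04 and CHLA 06 only. Of 98 alternative values, 55 stayed within the replicate or counting error or within 1.5 times the count, and 43 did not. The MST share of LTR reads was lowest in CHLA 06 with each of the settings below. With the arrays left out of the MST count alone, however, CHLA 02 had 6.69% and CHLA 06 had 6.73%, so CHLA 06 was no longer lowest. From summed TPM it was 10.2% in CHLA 02 and 8.19% in CHLA 06. Over elements outside genes CHLA 02 had 13.7%, CHLA 04 16.4%, CHLA 05 17.96% and CHLA 06 8.42%. Without the 10 elements with most reads the shares were 8.72%, 9.77%, 10.4% and 7.27%, and without the arrays, an alternative chosen after seeing the data, 6.91%, 7.25%, 7.36% and 6.78%, where the lines came close together. The cause of these moves was not tested, apart from the elements that an alternative leaves out.

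A TPM above 2 in at least 1 library, in place of 10 reads, gave 9002 MST elements. The share inside genes was 64.2% with genes of at least 1 TPM only, 64.5% at 5 reads, 72.3% at 20 reads and 72.3% without the arrays, and the share on the strand of the gene was 90.2% at 5 reads and 94.9% at 20 reads.

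Counts of elements higher in 1 line, in the same order of lines, were 34, 132, 341 and 284 at a difference of 1, with 2747 variable elements, and 0, 4, 87 and 19 at a difference of 3, with 1055 variable. With no limit on reads they were 69, 59, 374 and 127, with 2944 variable. With a pseudocount of 0.5 CHLA 02 had 3 and CHLA 04 had 32, and with one of 5 CHLA 02 had 0 and CHLA 06 had 33. Quantile normalization gave 2 in CHLA 02, and the maximum of technical replicates gave 34 in CHLA 04. Leaving out 1 technical replicate gave 1 to 7 elements in CHLA 02, with the 7 found without CHLA 04 replicate 1. The count of CHLA 02 is thus too small to rest on. Depth limits all counts, since an element of 400 bp without a read may have up to 3, and low counts of single reads decide many of these calls.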

Other observations

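Elements of the related THE1 group lie between the MST elements of the 3 chromosome 9 arrays and were likewise lowest in CHLA 06. In 27 THE1-int and THE1D-int elements of array 1, CHLA 02 had 308 reads, CHLA 04 had 487 and 458, CHLA 05 had 186, and CHLA 06 had 27 and 37. In 21 THE1D-int elements of array 2 the gap was smaller, and CHLA 02 had 304 reads, CHLA 04 had 415 and 554, CHLA 05 had 421, and CHLA 06 had 135 and 88. In 22 THE1-int and THE1D-int elements of array 3, CHLA 02 had 553 reads, CHLA 04 had 753 and 768, CHLA 05 had 430, and CHLA 06 had 20 and 23.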
